A study of Mus musculus with 9 samples.

Results

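The genes described here are transcription factors that pattern the embryo and are encoded outside the Hox clusters, read in RNA of stromal cells of mouse fat and muscle. A gene was a member when its symbol was 1 of 18 family names (Irx-, Tbx-, Six-, Pitx-, Lhx-, Meox-, Meis-, Pbx-, Prrx-, Alx-, Msx-, Dlx-, Barx-, Nkx-, Shox-, Hand-, En- or Emx-) followed by a number, which took 82 of the 26214 genes of the deposited table. All cells came from C57Bl/6 mice, which the study's methods give as C57Bl/6 J males of 8 to 12 weeks, and were collected 1 day after an injection into the quadriceps. Adipose stromal cells (ASCs) of subcutaneous fat (3 libraries) and fibro-adipogenic progenitors (FAPs) of the quadriceps (2 libraries) were from mice injected with NaCl, the non-injured control. Injured FAPs (3 libraries) were from a quadriceps injected with glycerol (50 percent in saline), which damages the muscle fibres. ASCs and FAPs were depleted of CD31+ and CD45+ cells and then selected for Sca-1. A library of CD31+CD45+ cells of glycerol-injected muscle had no replicate and entered no test. Replicates were made from a pool of cells of 3 animals, so the p-values measure the spread between libraries and not that between animals.

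Most members bind DNA through a homeodomain, a compact fold of helices that reads short AT-rich sites, and specificity comes from partners: Pbx and Meis proteins of the TALE class (a homeodomain with extra residues in a loop) bind DNA beside many of the others, Six-family proteins recruit Eya coactivators, and LIM-homeodomain proteins are joined by Ldb adaptors. T-box proteins bind through a different domain, and Hand proteins are basic helix-loop-helix factors. In the embryo they divide limb, trunk and face into regions, and fibroblasts of adult tissues keep part of this regional expression.

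All values are reads per gene divided by a factor per library, as the authors deposited them, without adjustment for gene length. The libraries held 27481573, 27349184 and 27402102 reads on genes in ASCs, 24052508 and 24164447 in FAPs, 26968235, 26698572 and 27028114 in injured FAPs, and 13091077 in the CD31+CD45+ cells. A count of 3 reads, taken per library as the limit that 0 reads allow, was worth a value between 2.29 and 4.71. Intervals and limits of this kind cover counting error only.

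The 9 defining markers of ASCs and FAPs (Pdgfra, Ly6a, which encodes Sca-1, Cd34, Thy1, Dcn, Lum, Col1a1, Col3a1 and Pdpn) were above 0 in all 8 ASC, FAP and injured FAP libraries. Their summed value was 3024655, 2782577 and 3195156 in ASCs, 1566162 and 1698481 in FAPs and 706507, 764958 and 688810.1 in injured FAPs against 64335 in the CD31+CD45+ library, and Col1a1 was the most abundant of them except in injured FAP library 3, where Col3a1 was. Libraries stood apart in markers of other cells. The 15 leukocyte genes summed to 752, 3492 and 649 in the injured FAP libraries and 14 were above 0 in each, so library 2 carried 9.996% of the sum of the CD31+CD45+ library against 2.15% and 1.86%, with Lyz2 its most abundant gene. In both FAP libraries 12 of these 15 genes were listed at 0, and Cd68 was the most abundant of the rest. Of 14 endothelial genes, Vwf, Emcn and Cldn5 were listed at 0 in both FAP libraries and Pecam1 in library 2. The list summed to 7895 and 5235 in FAPs, 6650.0, 5227 and 7029 in ASCs and 2092, 2275 and 1773 in injured FAPs. Tek was the most abundant in FAPs and ASCs and made up most of the sums of ASCs, at 5986, 4841 and 6700 there. Cdh5, the most abundant in injured FAPs, ran in another order than the sums. It was at 122.5, 87.2 and 59.0 in ASCs, 1438 and 686 in FAPs and 649, 663 and 537 in injured FAPs. Flt1 and Tie1 were also highest in FAPs and lowest in ASCs. The 14 genes that every cell uses were above 0 in all libraries. Of 9 epithelial genes, 7 were above 0 in ASC library 1, with a sum of 1092 and Krt8 the most abundant, 3 in library 2, with a sum of 14.7, and 8 in library 3, with a sum of 331.4.

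The groups also differed in genes of tendon and vessel wall. All 6 tenocyte genes were above 0 in every library, and they summed to 3392, 2694 and 2457 in ASCs, 249561 and 272278 in FAPs and 191441, 193642 and 178939.8 in injured FAPs, with Fmod the most abundant in ASCs and FAPs and Thbs4 in injured FAPs. The 10 genes of smooth muscle and pericytes, all above 0 too, summed to 5732, 3751 and 4711 in ASCs, 25090.3 and 22134 in FAPs and 10852, 10525 and 10957 in injured FAPs, with Abcc9 the most abundant in ASCs, Rgs5 and Acta2 in FAP libraries 1 and 2, and Cspg4 in injured FAPs. Muscle fibre genes summed to 179, 140.4 and 176 in ASCs, 884 and 1045 in FAPs and 308, 332 and 261 in injured FAPs. Genes of satellite cells and myoblasts summed to 3441, 3333 and 3585 in ASCs, 2759 and 2712 in FAPs and 5307, 5113 and 4939 in injured FAPs. Vcam1 was the most abundant in each and set this order, from which other genes of the list differed. Pax7 was at 0 in ASCs, 31.4 and 65.9 in FAPs and 11.8, 10.8 and 5.3 in injured FAPs. Itga7 and Des were also highest in FAPs among the 3 stromal groups, but Myod1 was highest in injured FAPs. Schwann cell genes summed to 1315, 1010.3 and 959 in ASCs, 1258 and 2090.4 in FAPs and 764, 489 and 779 in injured FAPs. Adipocyte genes summed to 2009, 1885 and 1682, 3077 and 2412 and 716, 801 and 644 in the same order. Of these, Pnpla2, the most abundant, and Lipe were highest in FAPs, but Adipoq, Plin1, Cidec and Cfd were highest in ASCs. Adipoq was at 44.8, 44.2 and 37.7 in ASCs, 0.95 and 8.5 in FAPs and at most 1.6 in injured FAPs. In the CD31+CD45+ library the endothelial genes summed to 381099.8 and the leukocyte genes to 34934, with all of both lists above 0. Lists outside the sort markers were also high there. The genes of smooth muscle and pericytes summed to 92522, with Rgs5 the most abundant at 40800. Adipocyte genes summed to 55388, with Fabp4 the most abundant at 42779. The part of these cells in the results was not tested, and in bulk RNA fewer cells of a type and less RNA per cell cannot be told apart.

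Of the 82 members, 17 were at 0 in all 9 libraries, 22 were above 0 with a mean under 10 over the 8 libraries, and 43 had a mean of at least 10 and were tested. A member high in 1 group passes this filter more easily, so the counts below describe the tested members and support nothing by themselves. The members tested were 11 of 13 TALE genes, 8 of 13 T-box genes, 4 of 6 Six-family genes, 10 of 31 NK and related genes, 6 of 9 paired-like genes, 3 of 8 LIM genes and 1 of 2 Hand genes. Differences were tested with limma on log2(value + 1) over all 13601 genes that passed the filter, with Benjamini-Hochberg adjustment, and a difference was called where the adjusted p was below 0.05 while the size of the log2 fold change exceeded 0.58. Fold changes are on that log2 scale, which understates those of low genes.

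Between ASCs and FAPs, 32 of the 43 tested members were called, 17 higher and 15 lower in ASCs, beside 47.2% of all tested genes (23.4% higher and 23.8% lower). Their median log2 fold change was 0.29 against 0.005 over all tested genes, and the median size was 1.79 against 0.604. Between injured FAPs and FAPs, 22 members were called, 5 higher and 17 lower after injury, beside 52.6% of all tested genes (24.9% higher and 27.7% lower). The members' share, 51.2%, was close to that background, and their median was -0.56 against -0.05 with a median size of 0.767 against 0.697. Between injured FAPs and ASCs, 35 members were called, 12 higher and 23 lower in injured FAPs, beside 50.8% of all tested genes (25.0% higher and 25.8% lower). Here the median was -0.85 against 0.02 and the median size 1.47 against 0.647. The medians of the members were the same with genes of a group at 0 set to their bound (4, 3 and 1 genes). These genes stayed on the same side of the median, so it could not move, and this says nothing about the zeros. The 3 comparisons share libraries and are not independent. Dividing by a common 75th percentile in place of the deposited scaling moved the median of all genes by -0.21 in ASCs against FAPs and by 0.11 in injured FAPs against ASCs. Without injured FAP library 2, which had the highest leukocyte sum of the 3, 22 and 34 members were called in the comparisons with FAPs and with ASCs.

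**Figure D1:**
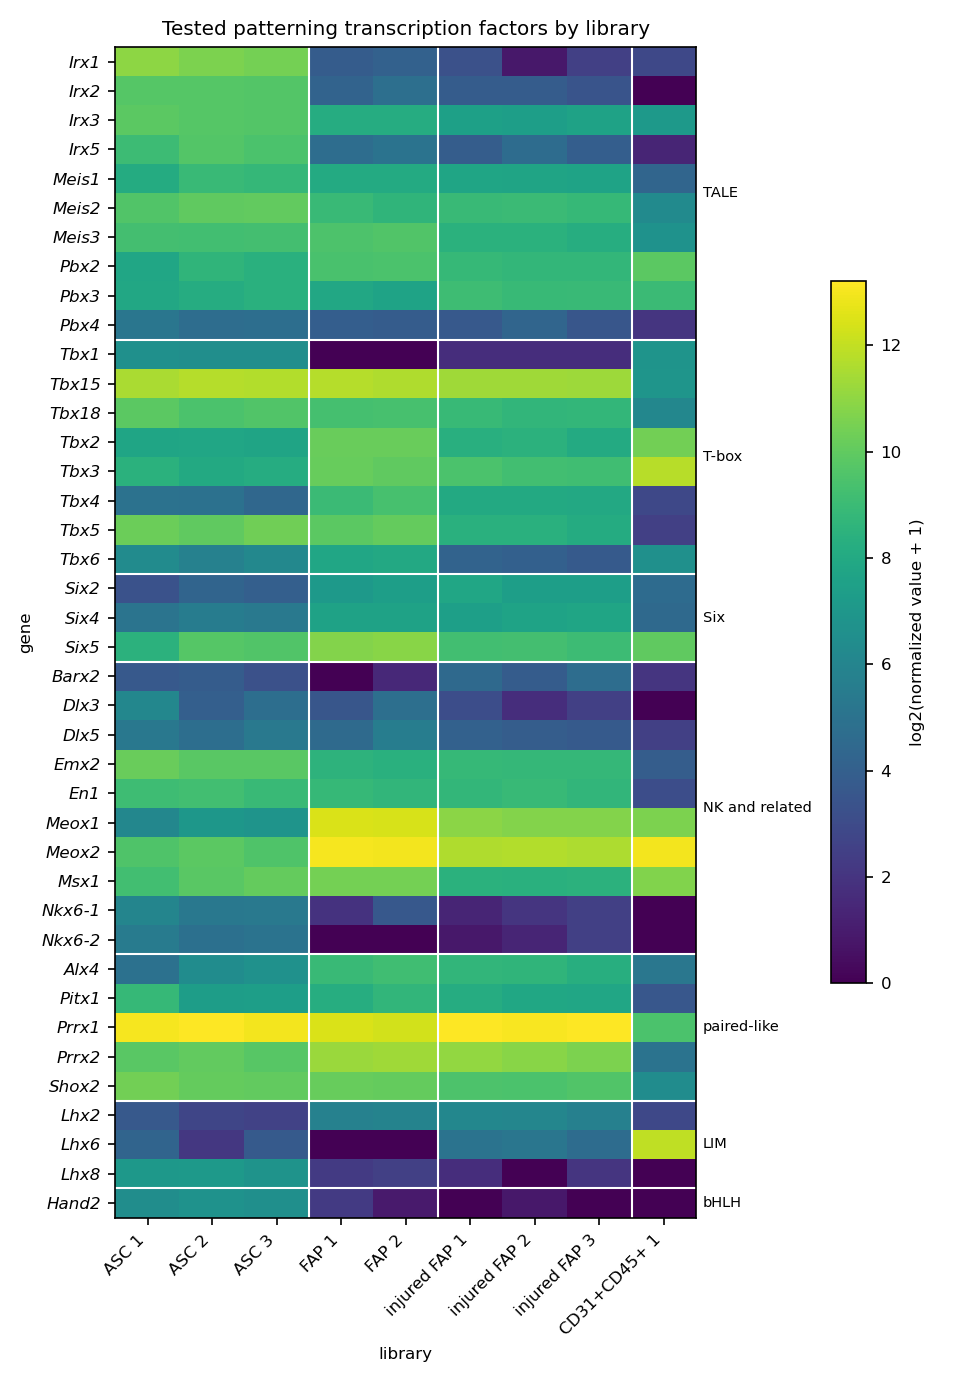
Heat map of 40 of the 43 tested members (lines, grouped by DNA-binding domain) in the 9 libraries (columns), coloured by log2(normalized value + 1). Irx1, Irx2 and Irx5 are bright in the 3 ASC libraries and dark in FAPs and injured FAPs, and Meox1 shows the opposite, with values up to 125.7 in ASCs and from 1715 upward in the 5 FAP and injured FAP libraries.

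**Figure D2:**
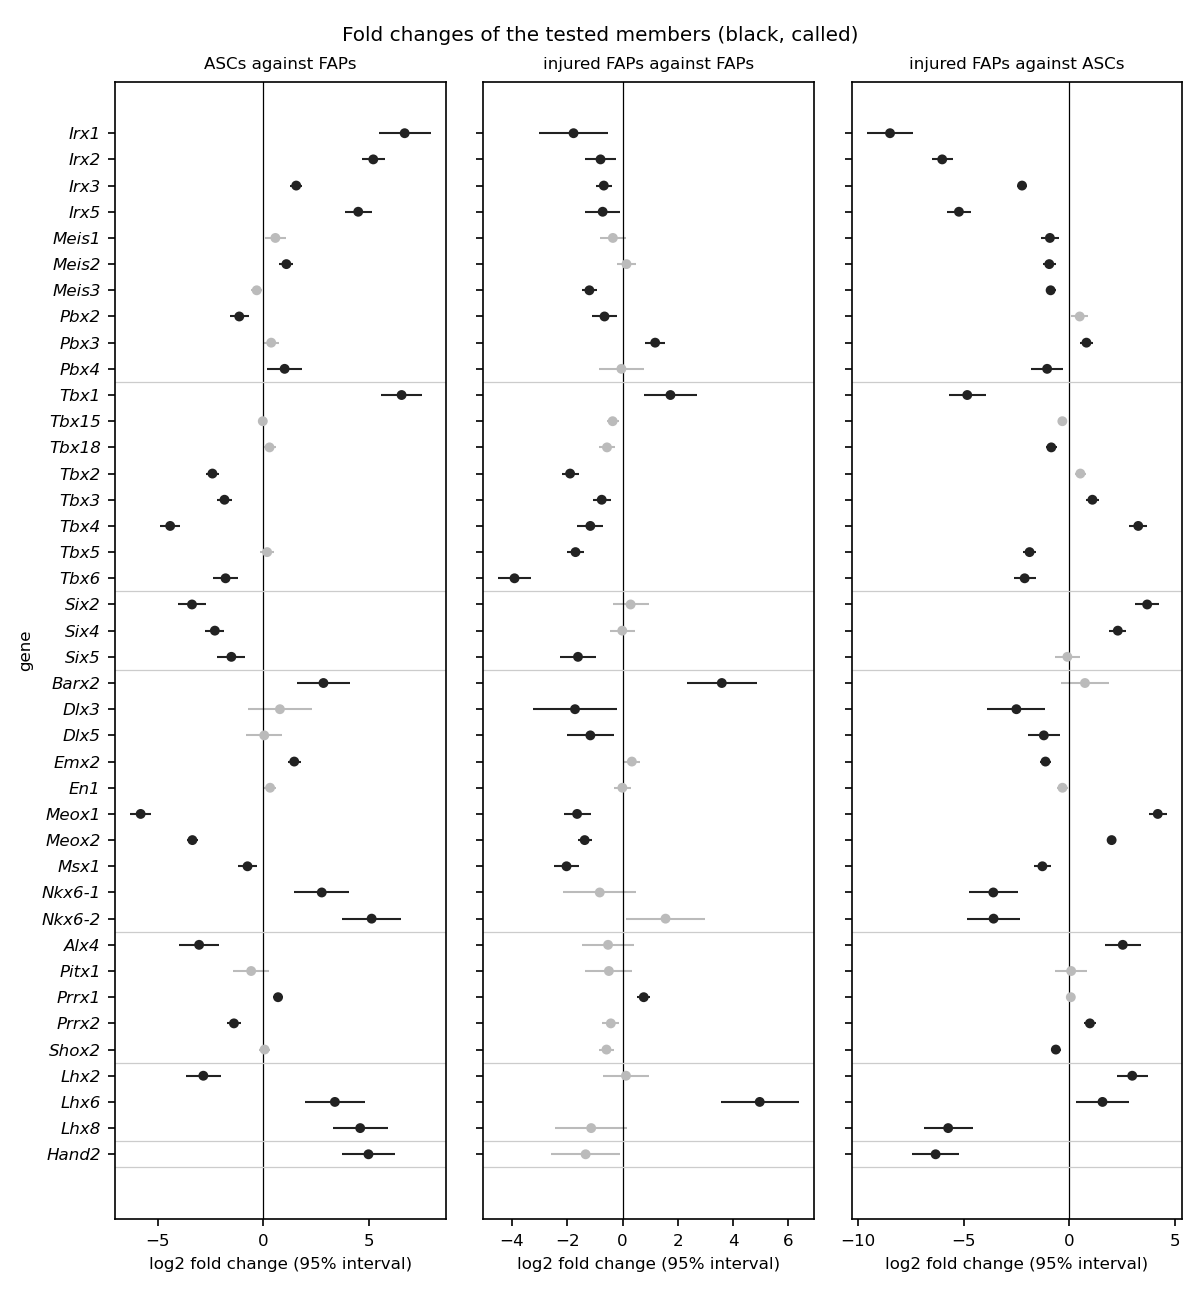
Log2 fold changes (points) with 95% intervals (lines) of 40 tested members in the 3 comparisons, black where called and grey where not. From left to right 29, 22 and 32 of these are black, and in the panel of ASCs against FAPs the points run from -5.82 (Meox1) to 6.70 (Irx1).

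The Iroquois genes are TALE factors that regionalize the embryo along the body and limb axes, and lie in a pair of clusters on chromosomes 13 and 8. Irx1 (chr13:71957921-71963723, GRCm38) had values of 1971, 1558 and 1393 in ASCs, 13.3 and 15.99 in FAPs and 8.6, 0.77 and 4.6 in injured FAPs. All ASC libraries were high, the FAP libraries were low, and the injured FAP libraries lay lower still, with no overlap between groups. The mean of ASCs, 1641 ± 297 (SD, n = 3), was 112 times that of FAPs, a log2 fold change of 6.70 (SE 0.56, adjusted p 4.8e-06). Between injured FAPs and ASCs it was -8.47 (SE 0.50, adjusted p 2.8e-07). The difference between injured FAPs and FAPs, -1.77 (adjusted p 0.017), lost its call without FAP library 1 (-1.90, adjusted p 0.055) or 2 (-1.65, adjusted p 0.091), and without injured FAP library 2, which had the lowest value, it was -1.09 there and -7.79 against ASCs.

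Irx2, the neighbour of Irx1 at a gap of 665.1 kb (chr13:72628820-72634198), was read at 856, 831 and 829.8 in ASCs, 17.1 and 27.3 in FAPs and 13.3, 13.2 and 9.9 in injured FAPs. ASCs stood far above both muscle groups and varied little. Its log2 fold change was 5.21 (SE 0.25, adjusted p 1.4e-07) for ASCs against FAPs and -6.01 (SE 0.22, adjusted p 2.2e-08) for injured FAPs against ASCs. Irx5, of the chromosome 8 cluster (chr8:92357625-92376286), had values of 532, 813 and 695 in ASCs, 25.7 and 31.99 in FAPs and 14.1, 24.02 and 14.5 in injured FAPs. The order was the same, ASCs high and muscle cells low, with log2 fold changes of 4.50 (SE 0.28, adjusted p 8.2e-07) and -5.22 (SE 0.25, adjusted p 8.8e-08). Irx3, 555.6 kb from Irx5 (chr8:91798525-91802067), was also read in muscle, with 937, 845 and 805 in ASCs, 289 and 294 in FAPs and 181, 170.5 and 194 in injured FAPs. Each group of Irx3 was apart from the others, at 1.56 (SE 0.13, adjusted p 3.9e-06) for ASCs against FAPs and -0.68 (adjusted p 8.8e-04) for injured FAPs against FAPs. Exons of Irx3 overlap the antisense gene Irx3os, whose reads cannot be told apart from its own where counting ignores strand, which the study does not state.

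Per kb of exon, the mean of ASCs was 626 for Irx1, 312 for Irx3, 256 for Irx2 and 218 for Irx5. On the same scale FAPs had 105 for Irx3 and 5.6, 6.8 and 9.2 for Irx1, Irx2 and Irx5. So ASCs carried 4 Iroquois genes at levels of the same order, and FAPs mainly Irx3. After injury all 4 were called lower, as were 27.7% of all tested genes. The log2 fold changes of the 4 genes were -1.77 for Irx1, -0.80 for Irx2, -0.68 for Irx3 and -0.72 for Irx5. All kept this sign in the 18 settings tried, quantile and percentile scaling included, but only Irx3 kept the call in each. Irx2 lost it in 5 settings: without FAP library 2 (-0.47, adjusted p 0.16) or injured FAP library 3 (-0.67, adjusted p 0.050), with a pseudocount of 8 (-0.57), under quantile normalization (-0.35, adjusted p 0.20) and with only the compared groups in the fit (adjusted p 0.069). Irx5 lost it in 11 settings, among them quantile normalization (-0.24, adjusted p 0.44), edgeR (adjusted p 0.093), DESeq2 (adjusted p 0.063), and the fits without FAP library 2 (-0.56, adjusted p 0.22), FAP library 1 (-0.87, adjusted p 0.067), injured FAP library 1 (-0.59, adjusted p 0.13), injured FAP library 3 (-0.61, adjusted p 0.12) or ASC library 3 (-0.72, adjusted p 0.068). The remaining genes of the clusters, Irx4 and Irx6, were at or under 2.3 in every library.

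Promoters are shown for members at the ends of the ASC and FAP comparison, chosen after their values were seen from those with an entry in the RefSeq table (GRCm38.p6), which matched 55 of the 82 members. Each is the 150 bases before the start that RefSeq gives, 5′ to 3′ on the gene's strand. Capitals mark matches, on either strand, to GGGCGG (the GC box), CCAAT (the box named for its letters), TATAAA (the box found before many start sites), TAATTA (the homeodomain core), TGACAG (the Meis core) or AGGTGTGA (the T-box core). Irx2 and Hand2 were higher in ASCs, and Meox2 and Six2 in FAPs.
Irx2 (chr13:72628670-72628819, plus strand): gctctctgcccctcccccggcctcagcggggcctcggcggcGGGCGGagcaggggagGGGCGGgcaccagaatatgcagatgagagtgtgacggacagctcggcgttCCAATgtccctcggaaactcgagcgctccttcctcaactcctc
Hand2 (chr8:57320833-57320982, plus strand): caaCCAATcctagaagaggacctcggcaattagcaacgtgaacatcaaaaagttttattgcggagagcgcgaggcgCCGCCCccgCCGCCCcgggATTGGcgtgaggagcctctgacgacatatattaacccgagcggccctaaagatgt
Meox2 (chr12:37108390-37108539, plus strand): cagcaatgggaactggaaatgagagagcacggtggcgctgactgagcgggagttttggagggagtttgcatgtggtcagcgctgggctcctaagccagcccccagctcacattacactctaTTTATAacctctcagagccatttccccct
Six2 (chr17:85688255-85688404, minus strand): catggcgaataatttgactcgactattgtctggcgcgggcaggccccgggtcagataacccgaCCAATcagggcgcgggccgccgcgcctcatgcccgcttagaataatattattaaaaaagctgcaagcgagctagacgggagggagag
The Irx2 window held 2 GC boxes and a CCAAT box, that of Hand2 2 CCAAT boxes and 2 GC boxes, that of Meox2 a TATA box, and that of Six2 a CCAAT box. The start of Six2 differs between annotations, and the end of its window lies inside the gene as GENCODE gives it. In the 250 bases before the start, the 55 members had a median of 15 CpG and 62% G or C, against 6 and 52% over 27025 promoters. A GC box stood in 36 of the 55 (65.5%) against 32.9% of all promoters of that length, the CCAAT box in 41.8% against 34.5%, the TATA box in 12.7% against 12.97%, the homeodomain core in 9.09% against 4.90%, the Meis core in 16.4% against 15.97% and the T-box core in 0 of 55 against 1.14%. In 150 bases, the length shown, the shares of members and of all promoters were 52.7% and 28.97% for the GC box, 34.5% and 25.3% for the CCAAT box, 7.27% and 8.08% for the TATA box, 1.82% and 2.80% for the homeodomain core and 10.9% and 9.67% for the Meis core. For the homeodomain core these are 5 of 55 members at 250 bases and 1 of 55 at 150, too few to compare. The T-box core was in 0 of 55 and 0.644%.

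Pbx proteins are TALE cofactors that bind DNA with Hox, Meis and other proteins. Pbx3 was read at 244, 284 and 338 in ASCs, 239 and 204 in FAPs and 541, 477 and 488 in injured FAPs. It was highest after injury, by 1.18 on the log2 scale over FAPs (SE 0.16, adjusted p 1.1e-04) and 0.81 over ASCs (adjusted p 5.8e-04), the one TALE member called higher in each of these comparisons.

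Meis proteins bind with Pbx and keep it in the nucleus. Meis2 had values of 790.4, 1005 and 1034 in ASCs, 491 and 392 in FAPs and 487, 505 and 463 in injured FAPs. ASCs were above both muscle groups, which overlapped, with log2 fold changes of 1.09 (adjusted p 1.3e-04) for ASCs against FAPs and -0.95 (adjusted p 1.1e-04) for injured FAPs against ASCs. Meis3 had 605, 592 and 614 in ASCs, 719.8 and 783 in FAPs and 348, 340.2 and 294 in injured FAPs. It fell after injury by 1.20 on the log2 scale (SE 0.12, adjusted p 1.2e-05), and injured FAPs were the lowest group. Over the 11 tested TALE members, 7 were called higher and 1 lower in ASCs than in FAPs, 1 higher and 6 lower after injury, and 1 higher and 9 lower in injured FAPs than in ASCs. The shares called were 72.7%, 63.6% and 90.9%, beside 47.2%, 52.6% and 50.8% of all tested genes. The 6 lower after injury became 3 without FAP library 1, 2 without FAP library 2 and 4 without injured FAP library 3. For injured FAPs against ASCs, the 1 higher became 2 without ASC library 2.

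The further TALE genes and cofactors gave 3 of 5 called higher in ASCs than in FAPs and none lower, 2 higher and 1 lower after injury, and 1 higher and 3 lower in injured FAPs than in ASCs. With 5 genes these shares (60.0%, 60.0% and 80.0%) say little beside 47.2%, 52.6% and 50.8% of all tested genes. Tgif1, a repressor of this class, had values of 6173, 3653 and 4139 in ASCs, 1072 and 968 in FAPs and 3063, 2499 and 2979 in injured FAPs. FAPs were lowest, at a log2 fold change of 2.15 (adjusted p 7.8e-06) for ASCs and 1.48 (adjusted p 8.5e-05) for injured FAPs against them. Its relative Tgif2 was read at 139.6, 229.9 and 157 in ASCs, 91.3 and 117 in FAPs and 527, 499 and 578 in injured FAPs. Injured FAPs were highest, 2.36 above FAPs (adjusted p 7.4e-06) and 1.63 above ASCs (adjusted p 3.3e-05). Pknox1, which binds with Pbx as Meis does, was 0.82 higher in ASCs than in FAPs (adjusted p 6.6e-04), and Pbxip1, which encodes a protein that binds Pbx proteins, was -0.90 in injured FAPs against ASCs (adjusted p 3.5e-06).

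Most T-box factors act in limb, heart or pharyngeal mesenchyme. Tbx4, which acts in hindlimb and lung mesenchyme, had values of 30.3, 29.4 and 20.1 in ASCs, 509.7 and 662 in FAPs and 262, 261 and 253 in injured FAPs (chr11:85886422-85916097). FAPs were high, injured FAPs intermediate and ASCs low, with no overlap. The mean of FAPs, 586 ± 108 (SD, n = 2), was 22 times that of ASCs, with log2 fold changes of -4.42 (SE 0.21, adjusted p 1.5e-07) for ASCs against FAPs and -1.16 (SE 0.21, adjusted p 7.9e-04) for injured FAPs against FAPs. Its neighbour Tbx2, a repressor 44.5 kb away (chr11:85832551-85841948), had 220.0, 224 and 212 in ASCs, 1185 and 1158 in FAPs and 317, 360.4 and 272 in injured FAPs. FAPs were again the high group, but injured FAPs lay close to ASCs. Its log2 fold changes were -2.42 (SE 0.14, adjusted p 4.5e-07) for ASCs against FAPs and -1.90 (SE 0.14, adjusted p 2.0e-06) after injury. Between injured FAPs and ASCs it was 0.52, under the threshold, and past it in 3 settings: without injured FAP library 3 (0.63), under a common 75th percentile (0.63) and with edgeR (0.62).

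Tbx3 and Tbx5 form another linked pair, 147.9 kb apart on chromosome 5. Tbx3, a close relative of Tbx2 that shapes limb and mammary buds, was read at 345, 262 and 285 in ASCs, 1119 and 1007 in FAPs and 717, 599.8 and 580.4 in injured FAPs. The groups did not overlap and FAPs were highest, with log2 fold changes of -1.84 (adjusted p 4.0e-06) for ASCs against FAPs and -0.75 (adjusted p 0.0013) after injury. Exons of Tbx3 overlap the antisense gene Tbx3os1, so its reads are uncertain. Tbx5, which starts the forelimb bud and acts in the heart, had 1212, 997 and 1306 in ASCs, 958 and 1102 in FAPs and 337, 333 and 279.9 in injured FAPs (chr5:119832668-119885219). ASCs and FAPs overlapped and injured FAPs were low. It fell after injury by 1.70 on the log2 scale (SE 0.15, adjusted p 5.0e-06), and against ASCs injured FAPs were at -1.88 (SE 0.13, adjusted p 7.8e-07). FAPs, which came from a hindlimb muscle, carried Tbx4 together with Tbx5, and per kb of exon their means were 172 and 220.2.

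Tbx6, which directs early mesoderm to a paraxial fate, had values of 80.4, 54.4 and 70.3 in ASCs, 222 and 252 in FAPs and 17.3, 15.5 and 12.2 in injured FAPs. FAPs were highest and injured FAPs lowest, with no overlap. It fell after injury by 3.91 on the log2 scale (SE 0.26, adjusted p 1.2e-06), the largest fall among the 43 tested members in that comparison. Tbx15, with roles in skeleton, muscle and fat, had 2915, 3389 and 3332 in ASCs, 3393 and 3142 in FAPs and 2533, 2596 and 2518 in injured FAPs. ASCs and FAPs overlapped, with a log2 fold change of -0.03 (95% interval -0.25 to 0.19), and no comparison of Tbx15 was called. Under quantile normalization that value was -0.43 (adjusted p 0.0073), outside the interval and not past the fold threshold. Per kb of exon its mean was 857 in ASCs, 872 in FAPs and 680.3 in injured FAPs, the highest of the T-box genes in each group.

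Tbx1, which acts in the pharyngeal arches, was read mainly in fat among the stromal cells. Values were 98.8, 90.6 and 90.4 in ASCs and 2.4, 2.3 and 2.3 in injured FAPs, and it was listed at 0 in both FAP libraries. If that 0 is a count of reads, ASCs were at least 32.7-fold higher than FAPs, against the limit of 3 reads per library. This is not certain, since FAP libraries also list Vwf, Emcn and Cldn5 at 0 while Cdh5 was read there. The values of injured FAPs are 3 reads per library, so no fold is given between the muscle groups. Over the 8 tested T-box members, 1 was called higher and 4 lower in ASCs than in FAPs, 1 higher and 5 lower after injury, and 2 higher and 4 lower in injured FAPs than in ASCs. These are 62.5%, 75% and 75% of them, where 47.2%, 52.6% and 50.8% of all tested genes were called. The one counted as higher after injury was Tbx1, whose mean of 2.32 in injured FAPs lay under the FAP limit of 2.85. No rise is read from that call, which was lost in 3 settings, such as with a pseudocount of 8 (adjusted p 0.17).

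Six2, Six4 and Six5 were called lower in ASCs than in FAPs. Proteins of this family work with Eya and Dach cofactors in muscle, kidney and sensory precursors. Six2, which keeps kidney progenitors undifferentiated and whose promoter held a CCAAT box, had values of 9.2, 18.1 and 15.1 in ASCs, 138 and 167 in FAPs and 225, 169.7 and 169 in injured FAPs (chr17:85684277-85688274). Both muscle groups stood above ASCs. Its log2 fold change was -3.38 (SE 0.29, adjusted p 6.1e-06) for ASCs against FAPs and 3.68 (SE 0.26, adjusted p 9.3e-07) for injured FAPs against ASCs, while that of injured FAPs against FAPs was 0.29 (95% interval -0.36 to 0.94).

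Six4, which acts in muscle precursors, was also low in ASCs. It was read at 32.9, 46.4 and 38.9 in ASCs, 197 and 196 in FAPs and 173, 201 and 214 in injured FAPs. Its muscle groups overlapped, and its log2 fold changes were -2.30 (adjusted p 6.6e-06) and 2.29 (adjusted p 1.9e-06). Six5 differed from these, with 357, 846 and 782 in ASCs, 1716 and 1829 in FAPs and 601, 606 and 535 in injured FAPs. FAPs were high and the other groups overlapped, so Six5 was the one of these 3 called after injury, at -1.61 (SE 0.30, adjusted p 8.3e-04). Levels per kb of exon in FAPs ran from 18.1 for Six4 and 72.05 for Six2 to 589.5 for Six5.

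Among the 6 Eya and Dach partners 4 were tested, of which 1 was called higher and 2 lower in ASCs than in FAPs, 2 lower after injury, and 1 higher and 1 lower in injured FAPs than in ASCs. In the comparisons with injured FAPs the share, 50%, was at the background of 52.6% and 50.8%, and in ASCs against FAPs it was 75% beside 47.2%. With 4 genes these shares say little. Eya1, a coactivator with phosphatase activity, had values of 0, 1.1 and 1.3 in ASCs, 36.1 and 40.5 in FAPs and 11.8, 10.8 and 18.3 in injured FAPs. FAPs were highest among the 3 stromal groups, ASCs held at most 1 read per library, and all 3 comparisons were called. The CD31+CD45+ library, without a test, held 392 of Eya1. Eya2 had 742, 564 and 803 in ASCs, 1119 and 1090.4 in FAPs and 673, 576 and 541 in injured FAPs, and fell after injury by 0.89 on the log2 scale (adjusted p 6.3e-04). Eya4 was the partner called higher in ASCs, at 537, 449 and 443 against 258 and 289.8 in FAPs and 229, 189.9 and 246 in injured FAPs, a log2 fold change of 0.79 over FAPs (adjusted p 0.0015).

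Meox1 and Meox2, homeodomain factors of the somite and its muscle and skeletal derivatives, were both high in muscle. Meox1 (chr11:101877510-101894374) had values of 67.2, 126 and 113 in ASCs, 5730.1 and 5511 in FAPs and 1951, 1744 and 1715 in injured FAPs. FAPs were high in both libraries, injured FAPs intermediate and ASCs low. The mean of FAPs, 5621 ± 155 (SD, n = 2), was 55.1 times that of ASCs, with a log2 fold change of -5.82 (SE 0.22, adjusted p 4.5e-08). After injury it fell by 1.64 on the log2 scale (SE 0.22, adjusted p 9.6e-05). Meox2 (chr12:37108540-37179534) was read at 747, 925 and 757 in ASCs, 8441 and 8187 in FAPs and 3220.1, 3349 and 3097 in injured FAPs. Its groups kept the same order, at -3.37 (SE 0.11, adjusted p 2.1e-08) for ASCs against FAPs and -1.37 (SE 0.11, adjusted p 3.6e-06) after injury. Per kb of exon, Meox2 and Meox1 were the members with the highest means in FAPs, 3523 and 2523. The CD31+CD45+ library held 1576 of Meox1 and 8086 of Meox2, and the summed genes of smooth muscle and pericytes were also highest in FAPs among the 3 stromal groups. In the CD31+CD45+ library that sum was higher still, at 92522. The part of such cells in these differences was not tested.

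**Figure D3:**
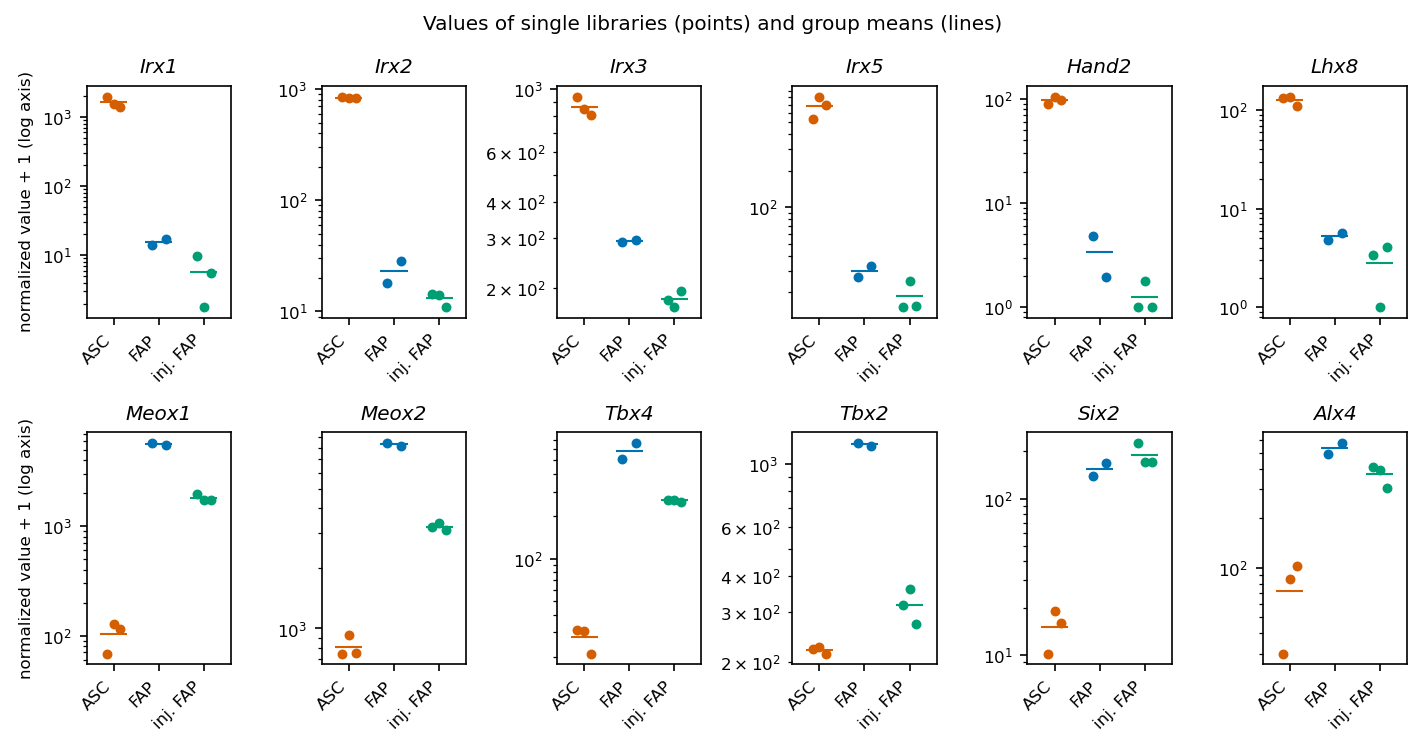
Normalized value + 1 on a log axis of 12 members in ASCs (3 libraries), FAPs (2) and injured FAPs (3), with points for libraries and lines for group means. The 4 Irx genes, Hand2 and Lhx8 are highest in ASCs, and Meox1, Meox2, Tbx4, Tbx2 and Alx4 are highest in FAPs, while Six2 lies between 169.3 and 225.2 in the injured libraries, above the 137.9 and 167.5 of FAPs.

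Msx1, a repressor that keeps mesenchyme undifferentiated, had values of 601, 908 and 1068 in ASCs, 1413 and 1401 in FAPs and 347, 331 and 358 in injured FAPs. FAPs were highest, and injured FAPs lowest, below all ASC libraries. It fell after injury by 2.02 on the log2 scale (SE 0.20, adjusted p 1.2e-05), and was -0.75 in ASCs against FAPs (adjusted p 0.008), a call lost without ASC library 1 (-0.51). Emx2, which acts in forebrain, limb girdle and urogenital tract, had 1154, 902 and 908 in ASCs, 375 and 336 in FAPs and 462, 446 and 438 in injured FAPs. ASCs lay above both muscle groups, at 1.47 over FAPs (SE 0.13, adjusted p 8.8e-06). Its exons overlap the antisense gene Emx2os. En1, a marker of dorsal trunk skin fibroblasts, was read at 544, 598 and 496 in ASCs, 466 and 408 in FAPs and 424, 475 and 407 in injured FAPs, and no comparison of it was called.

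Nkx, Dlx and Barx genes were read at lower values. Nkx6-1, which patterns the neural tube and pancreas, had values of 64.6, 38.5 and 38.9 in ASCs, 2.9 and 11.3 in FAPs and 1.6, 3.1 and 4.6 in injured FAPs. ASCs were above the muscle groups, which overlapped. Its log2 fold change was 2.77 (adjusted p 0.0023) over FAPs, 1.93 without FAP library 1 and 3.61 without FAP library 2. Between injured FAPs and FAPs it was -0.82, not called, and without FAP library 1 it was -1.66, called at an adjusted p of 0.043. Dlx3, a regulator of epidermis, hair and bone, was at 68.5, 14.7 and 26.4 in ASCs, 10.5 and 27.3 in FAPs and 7.8, 2.3 and 4.6 in injured FAPs. The ASC library with the highest epithelial sum, library 1, had the highest Dlx3. After injury it fell by 1.72 on the log2 scale (adjusted p 0.048), a call lost in 8 settings, such as without FAP library 2 (-1.07, adjusted p 0.32), injured FAP library 2 (-1.36, adjusted p 0.13), injured FAP library 3 (-1.73, adjusted p 0.092) or ASC library 3 (-1.72, adjusted p 0.065), and -2.37 without FAP library 1. Barx2, which acts in muscle and craniofacial mesenchyme, had 11.9, 13.6 and 8.8 in ASCs, 0 and 1.9 in FAPs and 21.97, 13.2 and 25.2 in injured FAPs. If the 0 of FAP library 1 is a count of reads, which is not certain, FAPs held 2 reads in all. The ratio to them was then 12.1 (counting interval 3.36 to 100.2) for ASCs and 21.4 (5.92 to 176.5) for injured FAPs. On the fitted scale both differences depended on the FAP library, at 2.09 and 2.83 without FAP library 1 and 3.61 and 4.35 without FAP library 2. Nkx6-2 is a relative of Nkx6-1, and its exons overlap Inpp5a on the opposite strand. Nkx6-2 had 44.8, 28.3 and 31.4 in ASCs and was listed at 0 in both FAP libraries. If that 0 is a count of reads, which is not certain, ASCs were at least 12.2-fold higher. Of the 10 tested NK and related members, 4 were called higher and 3 lower in ASCs than in FAPs, 1 higher and 5 lower after injury, and 2 higher and 6 lower in injured FAPs than in ASCs. Their shares called, 70.0%, 60.0% and 80.0%, stand beside 47.2%, 52.6% and 50.8% of all tested genes. The 5 lower after injury became 3 without FAP library 2 or injured FAP library 3, and the 1 higher became 2 without injured FAP library 1.

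Prrx1, a paired-like factor of limb and connective tissue mesenchyme, had values of 8305, 9461 and 8116 in ASCs, 5583 and 5046 in FAPs and 9231, 8668 and 9207 in injured FAPs. Per kb of exon its means were 779.6, 480.3 and 816, and on this scale only Tbx15 was above it in ASCs, and only Meox2 and Prrx2 in injured FAPs. FAPs were the low group and the others overlapped. It rose after injury by 0.77 on the log2 scale (SE 0.10, adjusted p 1.1e-04). For ASCs against FAPs it was 0.70 (adjusted p 2.5e-04), and this call was lost under quantile normalization (0.09) and under a common 75th percentile (0.49). Prrx2, its relative with the same domain, was named after the values were seen, like Nkx6-2 here. It went the other way, with 899.8, 1056 and 883 in ASCs, 2414 and 2549.5 in FAPs and 2169, 1864 and 1567 in injured FAPs. ASCs were the low group, at -1.40 against FAPs (SE 0.14, adjusted p 1.7e-05).

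Alx4, which patterns the front edge of the limb and the skull, had values of 28.98, 83.8 and 102 in ASCs, 487 and 571 in FAPs and 409.6, 394 and 306 in injured FAPs. Both muscle groups were above ASCs, and its log2 fold changes were -3.05 (SE 0.42, adjusted p 1.5e-04) for ASCs against FAPs and 2.52 (SE 0.38, adjusted p 1.8e-04) for injured FAPs against ASCs. Shox2, which acts in the proximal limb and the sinus node, had 1349, 1068 and 1048 in ASCs, 1119 and 1084 in FAPs and 726, 708 and 778 in injured FAPs. Injured FAPs were lowest, at -0.64 against ASCs (adjusted p 5.4e-04), a call lost without ASC library 1 (-0.52), under a common 75th percentile (-0.52) and with edgeR (-0.56). Against FAPs injured FAPs were at -0.58, just short of the call, and called in 5 settings: under quantile normalization (-0.72), under a common 75th percentile (-0.67), with a pseudocount of 0.5 (-0.58), and without FAP library 2 (-0.60) or injured FAP library 3 (-0.62). Its exons overlap Rsrc1. Pitx1, a hindlimb factor, was read at 462, 164 and 171 in ASCs, 302 and 408 in FAPs and 289.5, 235 and 228 in injured FAPs. ASC library 1 was far above the other ASC libraries, and no comparison was called, whereas without that library ASCs were lower than FAPs (-1.07, adjusted p 0.00043). That library also had the highest epithelial sum of the 3, whose part in the result was not tested. Over the 6 tested paired-like members, 2 were called higher and 2 lower in ASCs than in FAPs, 1 higher after injury, and 2 higher and 2 lower in injured FAPs than in ASCs. The shares were 66.7%, 16.7% and 66.7%, against 47.2%, 52.6% and 50.8% of all tested genes, and without ASC library 1 the 2 lower became 3 between ASCs and FAPs and 1 for injured FAPs against ASCs.

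LIM-homeodomain factors specify neurons, limb pattern and gonad. Lhx8, which acts in tooth mesenchyme, forebrain and oocytes, had values of 132, 137 and 109 in ASCs, 3.8 and 4.7 in FAPs and 2.4, 0 and 3.1 in injured FAPs (chr3:154306294-154330659). ASCs were high and all muscle libraries near the limit of 3 reads. Its log2 fold changes were 4.59 (SE 0.58, adjusted p 8.6e-05) for ASCs against FAPs and -5.73 (SE 0.52, adjusted p 5.4e-06) for injured FAPs against ASCs, the latter -5.10 without injured FAP library 2. Lhx2, a factor of limb outgrowth and hair follicles, showed the reverse, with 11.9, 5.7 and 5.0 in ASCs, 55.2 and 58.3 in FAPs and 68.3, 65.1 and 53.4 in injured FAPs. Both muscle groups were above ASCs and overlapped each other, at -2.85 for ASCs against FAPs (SE 0.37, adjusted p 9.8e-05). Lhx6, which acts in interneurons and the oral mesenchyme, had 18.4, 3.4 and 12.6 in ASCs, 31.4, 35.6 and 24.4 in injured FAPs and was listed at 0 in both FAP libraries, but at 3991 in the CD31+CD45+ library. If the FAP zeros are counts of reads, which is not certain, ASCs were at least 4.02-fold and injured FAPs at least 10.7-fold above FAPs. The higher value of injured FAPs than of ASCs (1.57, adjusted p 0.032) was no longer called without ASC library 2 (0.94, adjusted p 0.092) or injured FAP library 1 (1.54), 2 (1.45) or 3 (1.71). Without ASC library 2, the lowest of the 3, the fitted log2 value of ASCs against FAPs moved from 3.39 to 4.02. Among the injured FAP libraries, Lhx6 was highest in library 2, as were the leukocyte sum and the endothelial sum. The endothelial sums, 2092, 2275 and 1773, ran in the same order as Lhx6. The part of leukocytes and endothelial cells in the result was not tested. Exons of Lhx6 overlap Gm27953 on the same strand.

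Of the 8 LIM partners 6 were tested, with 2 called higher and none lower in ASCs than in FAPs, 3 lower after injury, and 5 lower in injured FAPs than in ASCs. With 6 genes, the shares in the comparisons with FAPs, 33.3% and 50%, say little beside the 47.2% and 52.6% of all tested genes. The share of injured FAPs against ASCs was 83.3% beside 50.8%, and with 6 genes it says little too. Isl1, a LIM-homeodomain factor outside the family names used here, had values of 50.1, 112 and 97.9 in ASCs, 0 and 1.9 in FAPs and 0.78, 1.5 and 0.76 in injured FAPs. It was a gene of ASCs here, with at most 2 reads listed in each muscle library, and was called in both comparisons with them. Ldb1, the adaptor that joins LIM-homeodomain proteins, was read at 2753, 2555 and 2532 in ASCs, 3367 and 3532 in FAPs and 1524, 1465 and 1430.1 in injured FAPs, and fell after injury by 1.23 on the log2 scale (adjusted p 2.0e-06). Lmo2, which binds Ldb1 without touching DNA, fell by 1.26 (adjusted p 1.4e-05). Ldb2, a second adaptor, was at -1.33 in injured FAPs against ASCs (adjusted p 6.6e-06), and Lmo4 at 0.94 in ASCs against FAPs (adjusted p 2.6e-04).

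Hand2, a helix-loop-helix factor of the posterior limb bud, branchial arches and heart whose promoter is shown with that of Irx2, had values of 88.3, 104 and 95.4 in ASCs, 3.8 and 0.94 in FAPs and 0, 0.77 and 0 in injured FAPs (chr8:57320983-57324633). ASCs were high and muscle cells at a few reads or none. The log2 fold change of ASCs against FAPs was 4.99 (SE 0.56, adjusted p 3.7e-05), 5.64 without FAP library 1 and 4.33 without FAP library 2. Injured FAPs held 1 read in all, and the ratio of ASCs to them was 371.5 (counting interval 66.7 to 14672). Between FAPs and injured FAPs the ratio was 9.18 (1.65 to 362.7) and not called, though 7 settings called it, among them without FAP library 2 (-1.99, adjusted p 0.020) and without injured FAP library 2 (-1.61, adjusted p 0.033). Exons of Hand2 overlap the antisense gene Hand2os1.

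Of 5 helix-loop-helix partners of Hand proteins, 2 were called higher and 1 lower in ASCs than in FAPs, 2 lower after injury, and 2 lower in injured FAPs than in ASCs. With 5 genes the shares, 60.0%, 40.0% and 40.0%, say little beside the background of 47.2%, 52.6% and 50.8% of all tested genes. Twist1, a regulator of mesenchyme, had values of 2541, 3195 and 3111 in ASCs, 1022 and 943 in FAPs and 1123, 1065 and 1058 in injured FAPs. ASCs were high and the muscle groups lay close together, at 1.58 for ASCs against FAPs (adjusted p 2.2e-06). Twist2 was read at 2287, 1801 and 1651 in ASCs, 1075 and 985 in FAPs and 645, 525 and 585 in injured FAPs. Each group was apart, and it fell after injury by 0.82 on the log2 scale (adjusted p 7.2e-04). Tcf4, which encodes a widely expressed dimer partner, was highest in FAPs and fell after injury by 0.74 (adjusted p 4.9e-05).

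Many of these factors repress genes through Groucho corepressors, of which 4 of 5 listed were tested. Of these 1 was called higher and 1 lower in ASCs than in FAPs, 3 lower after injury and 4 lower in injured FAPs than in ASCs, beside a background of 47.2%, 52.6% and 50.8% of all tested genes. Tle4 had values of 1693, 1208 and 1347 in ASCs, 468 and 460.0 in FAPs and 358, 314 and 314 in injured FAPs. ASCs were high, at 1.59 over FAPs (adjusted p 9.4e-06) and with injured FAPs at -2.09 against them (adjusted p 4.2e-07). Tle2 was highest in FAPs, at 975 and 1475 against 325, 331 and 262 in injured FAPs, and fell by 1.98 (adjusted p 8.7e-06). Tle1 fell after injury by 1.11 (adjusted p 3.3e-05). Over all 24 tested partners of the members, 9 were called higher and 4 lower in ASCs than in FAPs (median 0.27), 2 higher and 11 lower after injury (median -0.40) and 2 higher and 15 lower in injured FAPs than in ASCs (median -0.82). The shares called, 54.2%, 54.2% and 70.8%, stand beside 47.2%, 52.6% and 50.8% of all tested genes, so the share after injury was near the background.

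Patterning factors of mesenchyme outside the family names were set beside the members as a list of 50, of which 42 were tested. In ASCs against FAPs 13 were called higher and 12 lower (median 0.13), after injury 7 higher and 16 lower (median -0.54), and in injured FAPs against ASCs 10 higher and 17 lower (median -0.34). The shares called were 59.5%, 54.8% and 64.3% against the same background, near it after injury. Named after their values were seen, Osr2, which acts in palate and joints, was read at 12183, 13608 and 14930.2 in ASCs, 1510.0 and 1546 in FAPs and 1065, 883 and 824 in injured FAPs. It was high in fat like the Irx genes, at 3.15 over FAPs (adjusted p 7.3e-08). Scx, the tendon factor, had 9.2, 4.5 and 7.5 in ASCs, 597 and 582 in FAPs and 329.5, 243 and 272 in injured FAPs, and was low in fat like Meox1. It belongs also to the tenocyte list.

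Linked members were compared where less than 1000 kb separated them. Among pairs with both genes tested, Irx1 and Irx2, Irx3 and Irx5, and Tbx2 and Tbx4 were each on the same side in ASCs against FAPs. Of Tbx3 and Tbx5, only Tbx3 was called. Neighbours could also differ fully: Six3, 54.98 kb from Six2, was at 0 in all 9 libraries, as was Dlx6, 9.24 kb from Dlx5.

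Values in the CD31+CD45+ library are those of 1 library, without a test. Meox2 was there at 8086, Lhx6 at 3991 and Tbx3 at 3494. Msx1 was at 1678, Meox1 at 1576 and Tbx2 at 1348. Of members called higher in ASCs than in FAPs, Irx1 was at 6.3, Irx5 at 1.6, and Irx2, Hand2 and Lhx8 were at 0. Others of these were higher, with Irx3 at 137 and Prrx1 at 697 beside Lhx6. Tbx4 and Tbx5 were at 6.3 and 4.7. Tbx1 was at 111, above the highest ASC library, although FAPs were listed at 0 and injured FAPs near the limit of 3 reads.

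**Figure D4:**
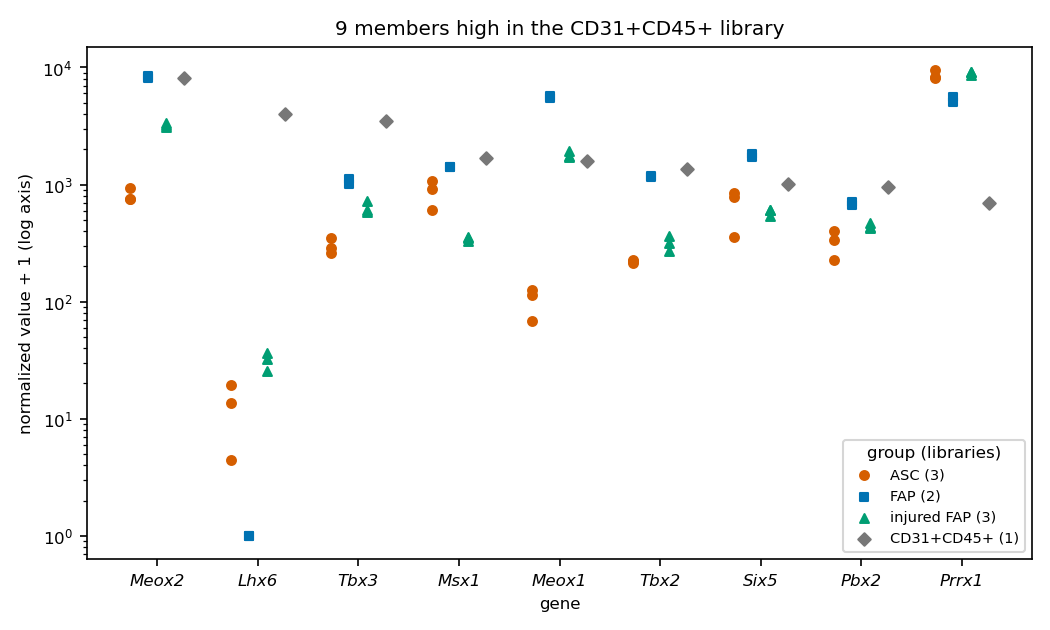
Normalized value + 1 on a log axis of 9 members high in the CD31+CD45+ library (grey diamonds), beside ASCs (circles, 3 libraries), FAPs (squares, 2) and injured FAPs (triangles, 3). Lhx6 stands at 3991 in the CD31+CD45+ library against at most 35.6 in the other 8, and Tbx3 at 3494 against at most 1119.

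Among the 39 members that were not tested, Lhx9 lay just under the filter, with a mean of 9.87. Lhx9, which acts in the gonad, had values of 1.3, 1.1 and 3.8 in ASCs, 19.02 and 28.2 in FAPs and 6.3, 12.4 and 6.9 in injured FAPs. FAPs were highest and ASCs at or near the limit of 3 reads. The remaining 21 members above 0 had means between 0.095 and 7.55. The 17 members at 0 in all 9 libraries included Lhx1, Lhx4, Tbx19, Tbx20, Nkx2-1, Nkx2-5, Dlx6, Emx1, Msx3, Six3 and Six6, many of them factors of brain, heart or gut.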

How the data were processed

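The deposited signal values are, per the authors, reads counted per gene with featureCounts (Subread 2.0.1) after filtering with fastq_illumina_filter 0.1, quality control with FastQC 0.11.9 and alignment to mm10 with HISAT2 2.2.1, and then normalized. The study names DESeq2 1.34.0 for its own tests. How the deposited values were scaled, the strand setting and the treatment of reads with several alignments are not stated. Each library's values were whole numbers times 1 factor, so reads were recovered, with 100% of values within 0.1 of a whole read. 2 empty columns of the table were dropped.

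Values were tested here as log2(value + 1) with limma 3.58.1 (R 4.3.3), with 3 groups in 1 fit over 8 libraries, a trend in the prior variance and 5 residual degrees of freedom. Benjamini-Hochberg adjustment covered 13601 genes, those whose mean reached 10. limma called 6416 genes between ASCs and FAPs, 7153 with injury against FAPs, and 6909 for injured FAPs against ASCs. In this order edgeR 4.0.16 called 6450.0, 7303 and 7000.0, and DESeq2 1.42.0 called 6412, 7227 and 6865. Gene positions and exon lengths are those of GENCODE M21 (GRCm38) and promoters those of RefSeq (GRCm38.p6).

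Members named were the 8 largest called differences in each direction of each comparison with a mean of at least 50 in the higher group, the member of each family with the highest mean in any of the 3 groups, members at 50 or more in the CD31+CD45+ library and over 2 times any other library there, and those with a mean between 8 and 12. Partners named had the 2 largest called differences of their list in each comparison. Single values of some members are not reported here, in text or figures, though the counts include them. Members, lists and rules were chosen with earlier results of the study known.

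With 2 FAP libraries and pooled animals, differences between animals could not be measured. Cell composition, protein and chromatin were not analysed here. FAP libraries list many genes of other cells at 0 although other markers of those cells were read. In FAP library 2, Pecam1 was listed at 0 and Cdh5 at 686. Whether such a 0 is a count of reads is not known. Folds against 0 are given as bounds, which hold only if it is. Reads of overlapping genes may be mixed.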

Additional observations from a re-analysis of the deposited data

Results flagged for a closer look

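In the CD31+CD45+ library, which entered no comparison, Lhx6 was at 3991, 112 times the highest of the other 8 libraries (35.6). Tbx3 was at 3494 there, 3.12 times the highest of the other 8 (1119). Both are values of 1 library without a replicate.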

How the results depend on the processing

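18 other settings were tried: pseudocounts of 0.5 and 8, no filter, a mean of at least 50, quantile normalization, a common 75th percentile, only the compared groups in the fit, a replicate block, each of the 8 libraries left out, edgeR and DESeq2. Members called ranged from 22 to 35 in ASCs against FAPs, from 17 to 27 in injured FAPs against FAPs and from 24 to 44 in injured FAPs against ASCs, the lowest with a mean of at least 50 (31 members tested). The highest were with no filter (65 members tested) in the comparisons with ASCs and with the 75th percentile in injured FAPs against FAPs. edgeR and DESeq2 each called 32, 23 and 35. Of 105 fold changes of named members, 75 were called, 66 of them in every setting that tested them, and 30 were not, 21 of them in none. 8 named members, such as Hand2, Lhx8, Tbx1 and Lhx2, fell under a mean of 50 and so were tested in 17 of the 18 settings.

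With a replicate block, which pairs libraries by their number, 31 (16 higher, 15 lower), 20 (5 and 15) and 35 (12 and 23) members were called. After group means were removed, r between same-numbered libraries of different groups ran from -0.054 to 0.045. The FAP libraries are mirror images of each other once their mean is removed. With so few libraries per group, these values cannot decide whether the numbers pair.

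Some fold changes that were not called changed sign. Six4 in injured FAPs against FAPs was 0.066 with quantile normalization, 0.0387 with edgeR, 0.0156 with DESeq2 and from -0.076 to 0.0768 with a library left out. Tbx5 in ASCs against FAPs was -0.0046 with quantile normalization and -0.029 with the 75th percentile. Six5 in injured FAPs against ASCs was 0.0213 with the 75th percentile and from -0.49 to 0.13 with a library left out. En1 in injured FAPs against FAPs was 0.0517 with the replicate block, 0.0372 with edgeR, 0.014 with DESeq2 and from -0.10 to 0.0892 with a library left out. Pitx1 in injured FAPs against ASCs was -0.0908 with quantile normalization, -0.0713 with DESeq2 and from -0.17 to 0.57 with a library left out. Shox2 in ASCs against FAPs was -0.13 with quantile normalization, -0.15 with the 75th percentile and from -0.0578 to 0.12 with a library left out. With a library left out, Meis2 in injured FAPs against FAPs ran from -0.0179 to 0.30, Nkx6-1 (-0.82 in the fit of the report) from -1.66 (called) to 0.0129, and Tbx15 in ASCs against FAPs from -0.0822 to 0.0414 (-0.43 with quantile normalization).

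Under quantile normalization Pbx3 in ASCs against FAPs (0.59), Prrx1 in injured FAPs against ASCs (0.59) and Lhx8 in injured FAPs against FAPs (-1.57) were also called.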
